A study of Homo sapiens with 6 samples.

Results

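The clustered protocadherins are cell-surface adhesion proteins made from 3 neighbouring gene clusters, alpha, beta and gamma, on chromosome 5. They were taken as every row of the count table whose transcript ID belongs, in GENCODE, to a gene named PCDHA, PCDHB, PCDHGA, PCDHGB or PCDHGC with a number. The rule found 47 of 22279 rows: 13 alpha, 12 beta and 22 gamma rows, with 3 pseudogenes among them (PCDHB17P, PCDHB18P and PCDHGB8P). The genes were chosen with the shRB and shCON values of this study known, so those values describe the genes and test nothing about them. Where their calls in the fit across all genes are counted, these are part of the description and no evidence.

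RNA was sequenced from LNCaP cells, an established human prostate cancer line that depends on androgen. In 3 libraries the cells carried a hairpin against RB (shRB), the retinoblastoma protein that holds back cell cycle genes, and in 3 a control hairpin (shCON). Cells of both groups had 72 h of CDT before harvest, a condition the series describes as hormone deficient. The labels name 1 hairpin per group, so loss of RB and the particular hairpin or cell population cannot be told apart, and they do not say that replicates were separate cultures, so any p-value measures a spread that may be technical.

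In neurons each cell makes its own mix of these proteins, which bind the same isoform on a facing cell and so let a neuron tell its own branches from those of others. Each alpha and gamma gene has its own first exon, coding for the outside and membrane part of the protein, and is spliced to last exons that all genes of that cluster share. Beta genes are single exons and share none. Each first exon has its own promoter, and most of these promoters carry a conserved element where CTCF binds and, with cohesin, loops the promoter to a distant enhancer.

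The promoter words below are shown because they are common to genes of a cluster whatever their level. They come from RefSeq windows of 300 bases on GRCh38.p14, 250 before and 50 after each start, which 39 of the 47 genes have, 4 of them with 2 windows. The word GGTGGCGCTG, the longest one common to the windows of all 9 beta genes, was then searched on both strands. It lay in the windows of 9 of 9 beta genes, of 0 of 11 alpha genes and of 0 of 19 gamma genes, and in 0.276% of all 35116 windows. Capitals mark the word, which begins at -84 to -2 from the annotated start, and all stretches are on the plus strand. The stretches of PCDHB5 (chr5:141135170-141135214), PCDHB7 (chr5:141172557-141172601), PCDHB8 (chr5:141177768-141177812), PCDHB16 (chr5:141182301-141182345) and PCDHB10 (chr5:141192290-141192334) read as follows.
PCDHB5: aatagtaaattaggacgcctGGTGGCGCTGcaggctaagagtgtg
PCDHB7: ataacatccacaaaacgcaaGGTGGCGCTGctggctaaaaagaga
PCDHB8: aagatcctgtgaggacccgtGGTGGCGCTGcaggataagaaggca
PCDHB16: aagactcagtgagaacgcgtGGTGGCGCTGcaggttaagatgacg
PCDHB10: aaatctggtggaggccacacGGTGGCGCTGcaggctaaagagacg

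The shorter word CGCTGT, which overlaps the longer one in part, was in the windows of 6 of 11 alpha, 1 of 9 beta and 16 of 19 gamma genes, against 11.2% of all windows. Counted in windows, it was in 26 of the 43 windows of the family. Its core CGCT was in 42 of the 43 windows, against 70.01% of all. The stretches of PCDHA1 (chr5:140786082-140786122), PCDHGA10 (chr5:141412927-141412967) and PCDHGC3 (chr5:141475876-141475916), which are among the genes with the most reads of their own in their clusters, show it in capitals.
PCDHA1: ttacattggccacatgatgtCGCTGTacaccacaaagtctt
PCDHGA10: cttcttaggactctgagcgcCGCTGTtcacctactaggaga
PCDHGC3: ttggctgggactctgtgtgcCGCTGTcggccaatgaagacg
The word GGTGGCGCTG was taken from the beta windows themselves, so its frequency there is a description. CGCTGT and CGCT were set as fixed words, and their frequencies are likewise given as a description. The E2F-type words TTTCGCGC, TTTGGCGC and TTTCCCGC, searched on both strands, were in 0 of the 43 windows, against 0.515%, 0.652% and 1.63% of all windows, which says only that these letters are not in these windows. TATAAA was in 6 of them, against 11.5% of all.

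The shCON libraries held 6115310 to 20091488 counts each and the shRB libraries 9780579 to 10898768. Levels are CPM, counts scaled to TMM-adjusted library totals, given as mean ± SD over 3 libraries. RB1, the target of the hairpin, fell from 56.5, 52.7 and 54.7 CPM in shCON to 5.82, 3.82 and 5.41 CPM in shRB, which is 9.18% of the shCON mean (log2 fold change -3.43 ± 0.13 SE, adjusted p = 2.4e-09, edgeR quasi-likelihood test with Benjamini-Hochberg adjustment). The luminal prostate markers, 11 of 11 detected, summed to 5688 to 5953 CPM in shCON and 5335 to 5664 CPM in shRB. None of the 11 was at 0 in any group.

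Of the 47 rows, 30 had enough reads for the fit across all genes: 1 alpha, 8 beta and 21 gamma rows. In that fit 24 of the 30 were called higher in shRB, 3 of them beta and 21 gamma, beside 12.8% of all 11712 rows tested. None was called lower, beside 12.5% of all rows. In 25 of the 30 every shRB library was above every shCON library, beside 21.0% of all rows, and in 0 every shRB library was below, beside 20.2%. Nothing is read from these counts, since the contrast was known when the genes were chosen and since the gamma rows, as shown further on, count mostly the same reads. The median log2 fold change was 0.39 over the 8 beta rows and 0.41 over the 21 gamma rows, beside -0.01 over all rows tested, while the 1 alpha row had -0.10.

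**Figure D1:**
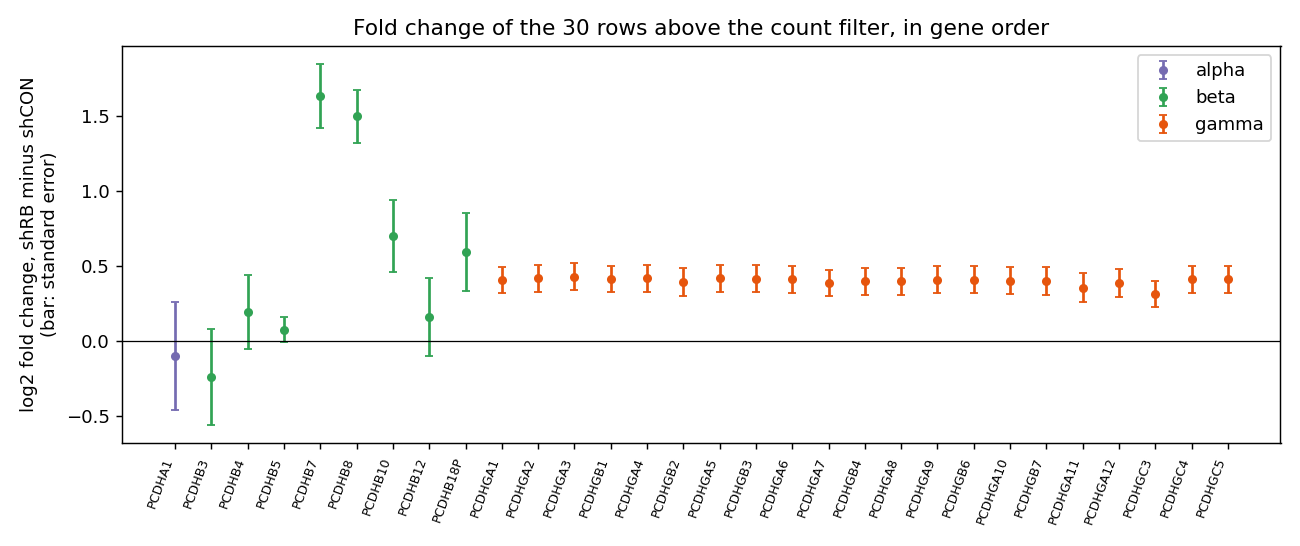
Log2 fold change of shRB over shCON (vertical axis) for the 30 rows with enough reads, in gene order along each cluster, with bars of 1 standard error. The beta genes spread from -0.24 to 1.63, whereas the gamma rows lie between 0.32 and 0.43.

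The beta cluster was read gene by gene, because each beta gene is 1 exon. Its rows shared 8.64% to 35.4% of their 50-base words with other rows of the table, so a part of the reads may be exchanged between close paralogs, PCDHB10 with PCDHB9 most of all. In bulk RNA, fewer cells that make a transcript and less of it per cell cannot be told apart.

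One gene carried most of the RNA counted in the 12 beta rows. No row was matched to PCDHB1, PCDHB2, PCDHB11, PCDHB13, PCDHB14 or PCDHB15. Orders and shares within the cluster therefore cover the rows present only. PCDHB5 was at 49.9, 50.4 and 49.9 CPM in shCON and 54.1, 50.5 and 53.8 CPM in shRB. The groups touch without overlap, shRB 2 being level with the shCON libraries (50.1 ± 0.28 against 52.8 ± 2.03 CPM, log2 fold change 0.08 ± 0.08 SE, not called). Per kilobase of transcript, PCDHB5 stood at 14.7 CPM in shCON, whereas the next beta row, PCDHB8, was at 1.21 CPM per kilobase.

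PCDHB7 and PCDHB8, which lie side by side among the measured genes of the cluster, had the largest log2 fold changes among the 30 rows with enough reads. PCDHB7 was at 1.42, 1.31 and 1.31 CPM in shCON and 3.91, 4.13 and 4.73 CPM in shRB. PCDHB8 was at 3.29, 2.61 and 4.08 CPM in shCON and 9.82, 8.16 and 9.46 CPM in shRB. For both genes all 3 shRB libraries lay far above all 3 shCON libraries. The means were 1.34 ± 0.07 against 4.26 ± 0.42 CPM for PCDHB7 (3.17-fold, log2 1.63 ± 0.21 SE) and 3.33 ± 0.74 against 9.15 ± 0.87 CPM for PCDHB8 (2.75-fold, log2 1.50 ± 0.18 SE).

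PCDHB10, the next gene by size of difference, was at 4.22, 2.01 and 3.43 CPM in shCON and 6.55, 4.88 and 5.02 CPM in shRB. The groups did not overlap, but shCON 1 came close to the 2 lower shRB libraries (3.22 ± 1.12 against 5.48 ± 0.93 CPM, log2 0.70 ± 0.24 SE). Its call was lost with DESeq2 (log2 0.74), with upper quartile scaling (0.68) and without shCON 2 (0.47), shCON 3 (0.72), shRB 1 (0.55) or shRB 3 (0.77).

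The other beta genes with enough reads were not called and had overlapping groups. PCDHB18P, a pseudogene, was at 1.91, 1.20 and 2.45 CPM in shCON and 2.73, 3.18 and 2.32 CPM in shRB (log2 0.59 ± 0.26 SE). PCDHB4 averaged 2.39 ± 0.71 and 2.71 ± 0.32 CPM, and PCDHB12 1.38 ± 0.15 and 1.57 ± 0.12 CPM. PCDHB3 was the only beta row with a lower mean in shRB, 1.31 ± 0.31 against 1.16 ± 0.35 CPM (log2 -0.24 ± 0.32 SE, or 0.06 without shCON 1). Below the filter, PCDHB6 had 30 counts in shCON and 27 in shRB, PCDHB9 had 21 and 22, and PCDHB17P had 2 and 5. PCDHB16, which lies between PCDHB8 and PCDHB9 and whose window holds the same GGTGGCGCTG word, had 0 counts in every library. Whether this comes from the counting of reads or from the cells was not tested.

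**Figure D2:**
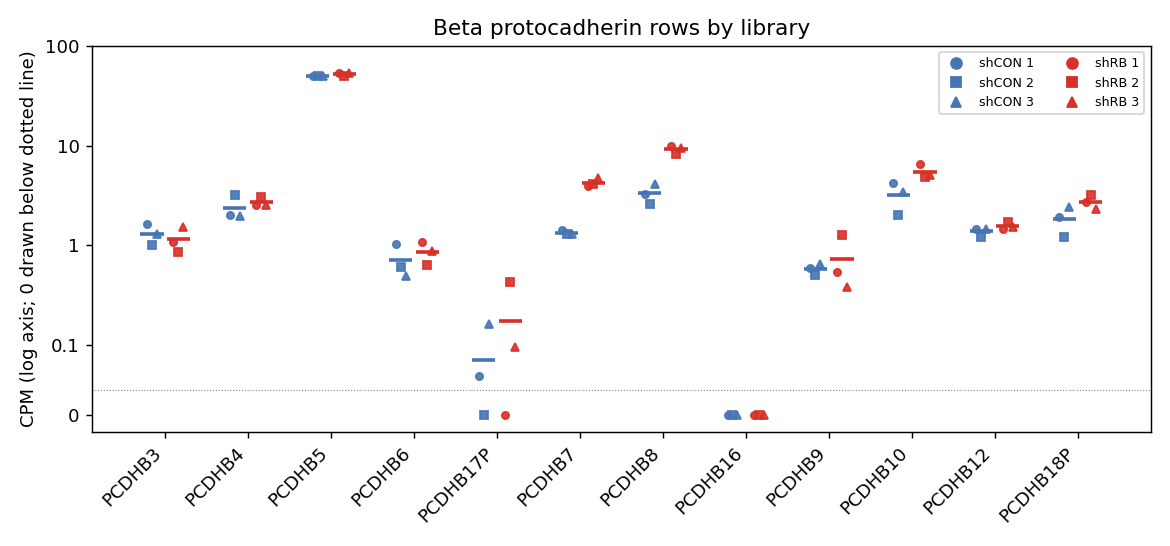
CPM of the 12 beta rows by library on a log axis, with circles, squares and triangles for replicates 1 to 3, short lines for group means, and values of 0 below the dotted line. PCDHB5 stays near 50 CPM in all 6 libraries, PCDHB7 and PCDHB8 are well separated between groups, and PCDHB16 is at 0 throughout.

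The order of the beta genes by CPM per kilobase therefore differed between the groups below its head. In shCON it ran PCDHB5, PCDHB8 at 1.21, PCDHB10 at 0.98 and PCDHB4 at 0.63 CPM per kilobase, and PCDHB7 was in place 8 at 0.36. In shRB it ran PCDHB5 at 15.5, PCDHB8 at 3.34, PCDHB10 at 1.67 and PCDHB7, in place 4, at 1.13 CPM per kilobase. In shCON 7 of the 11 pairs of neighbours in this order overlapped in their library ranges, PCDHB8 with PCDHB10 included. In shRB 6 of 11 did, and the first 4 genes were each apart from the next. Of the CPM summed over the 12 beta rows, PCDHB5 made up 73.9%, 78.7% and 74.3% in the shCON libraries. In the shRB libraries it made up 64.5%, 64.1% and 65.4%. Without it, the other 11 beta rows summed to 17.6, 13.7 and 17.3 CPM in shCON and 29.7, 28.3 and 28.5 CPM in shRB, so the 2 groups were apart.

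The gamma rows were not independent of each other. In GENCODE 2181 bases of shared last exons are in each of the 21 gamma genes, beside 2397 to 2597 bases of its own in each of the 20 genes used below. The rows of these 20 genes were at nearly the same level in every library, between 65.2 and 80.2 CPM in shCON 1 and between 85.0 and 97.5 CPM in shRB 1. The shared part made up 96.9% of the counts summed over these rows, where each shared read enters once per row. Counted once, it had 2444 counts in shCON and 2776 in shRB. The reads above it, summed over the 20 rows, came to 1731 and 1591 counts. The 20 rows thus repeat 1 measurement of the shared exons, each with a few reads of its own on top.

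The exception was PCDHGA11, which stood at 50.02 ± 2.36 CPM in shCON and 63.8 ± 6.83 CPM in shRB, 69.7% to 74.6% of the lowest other gamma row in each library. It was left out of the separation of shared and own reads. PCDHGB8P, a pseudogene without the shared exons, had 6 counts in shCON and 2 in shRB.

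To separate the 2 kinds of reads, the lowest of the 20 rows in a library was taken as its shared part and what each row had above it as the reads of that gene's own first exon. The lowest row was that of PCDHGC4 in every library, whose own reads are therefore 0 by construction. Intervals given for own reads are exact 95% binomial intervals on the summed counts, treat what is left after the subtraction as a count and cover counting error only.

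The shared part was at 65.2, 67.0 and 72.8 CPM in shCON and 85.0, 102 and 85.0 CPM in shRB. All shRB libraries were above all shCON libraries, with shRB 2 the highest (68.4 ± 3.95 against 90.6 ± 9.82 CPM). The ratio of shRB to shCON was 1.35 with an interval of 1.27 to 1.42. Without shRB 2 the ratio of means went from 1.33 to 1.24.

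Libraries differed in how their levels moved with GC content across genes. The Spearman correlation of a library's deviation from its group mean with transcript GC content was 0.69 in shRB 2 and 0.52 in shCON 2, and between -0.54 and -0.09 in the other 4 libraries, over 11674 genes. The gamma rows are GC-rich, with a median of 55.2% against 49.7% over all rows tested. With a GC offset per library the median gamma log2 fold change was 0.36 in place of 0.41, and without shRB 2 it was 0.33, with all 21 rows called in both. Without shCON 1, PCDHGA11 (log2 0.32) and PCDHGC3 (0.28) lost their calls, and PCDHGC3 also without shCON 2 (0.31).

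**Figure D3:**
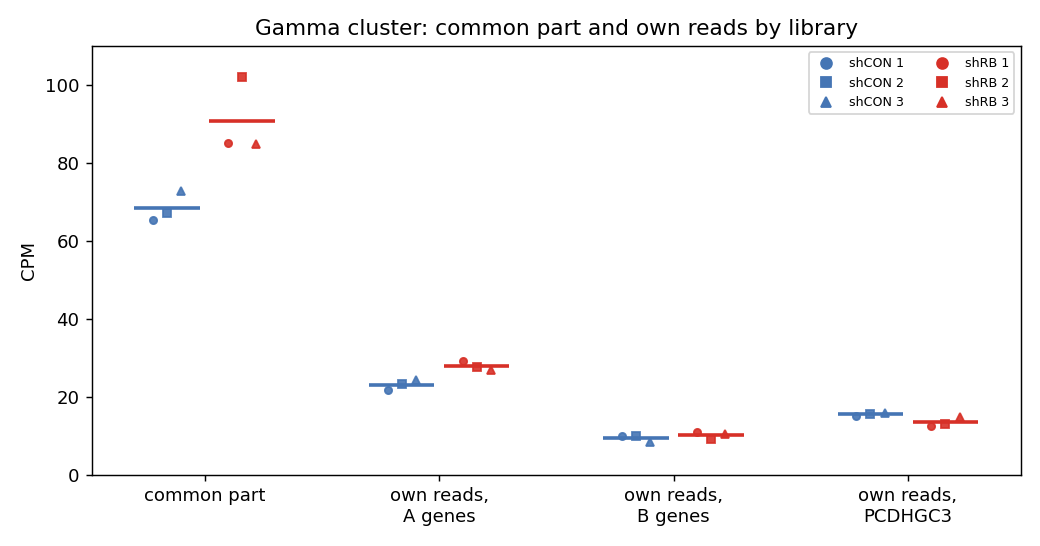
CPM by library of the gamma cluster's shared part (the lowest of 20 rows) and of the reads above it, summed over PCDHGA genes, over PCDHGB genes and for PCDHGC3, with lines for group means. The shared part is apart between groups at 68.4 against 90.6 CPM, whereas the PCDHGB reads overlap. The PCDHGC3 reads are lower in shRB, but the groups all but touch.

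The reads of the first exons differed less between the groups than the shared part. Summed over the 20 genes, they were 46.5, 48.9 and 48.3 CPM in shCON and 52.8, 49.8 and 52.2 CPM in shRB. The groups were narrowly apart, with shRB 2 the lowest of its group here (47.9 ± 1.25 against 51.6 ± 1.57 CPM, ratio 1.09, interval 1.02 to 1.17). Per kilobase, the shared part was at 31.3 CPM in shCON and 41.6 CPM in shRB, and the summed first exons at 19.3 and 20.8 CPM. The first exons thus came to 61.6% of the shared exons in shCON and 50.1% in shRB. The gap between the 2 kinds of reads narrowed without shRB 2. The ratio of means was then 1.24 for the shared part and 1.10 for the summed first exons, or 1.20 with PCDHGC3 left out.

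PCDHGC3, one of the 3 C-type gamma genes that lie nearest the shared exons, had the most own reads. It had 14.96, 15.7 and 15.8 CPM of its own in shCON and 12.6, 12.9 and 14.9 CPM in shRB. All 3 shRB libraries were below all 3 shCON libraries, the opposite order from the whole row (15.5 ± 0.46 against 13.5 ± 1.24 CPM, ratio 0.879, interval 0.772 to 1.00). The groups all but touched, with 14.96 own CPM in shCON 1 against 14.87 in shRB 3, and the interval just covered 1. Without single libraries the ratio was 0.832 to 0.912, and the interval covered 1 except without shRB 3. PCDHGC3 made up 32.2% of the first-exon reads in shCON and 26.0% in shRB. PCDHGC5, another C-type gene, had 2 own counts in shCON and 3 in shRB.

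The own reads of the other gamma genes were higher in shRB as a sum, at 32.4 ± 0.85 against 38.2 ± 1.80 CPM (ratio 1.19, interval 1.10 to 1.29). Those of the PCDHGA genes summed to 21.6, 23.2 and 24.2 CPM in shCON and 29.2, 27.7 and 26.8 CPM in shRB, and the groups were apart. Those of the PCDHGB genes summed to 9.91, 9.84 and 8.32 CPM in shCON and 10.8, 9.22 and 10.4 CPM in shRB, with overlap.

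Single gamma genes went both ways. Some first exons hold 50-base words of close paralogs too, so a part of the own reads may be exchanged between them. With shared exons included, the PCDHGA3 row shared 55.3% of its words with other rows, PCDHGA2 most of all. For PCDHGC5 it was 45.3%. PCDHGA3 had 0.59, 1.00 and 0.98 own CPM in shCON and 2.73, 2.44 and 1.74 in shRB. Its 2 groups were well apart, on 28 counts in all against 71 (ratio 3.00, interval 1.92 to 4.83). PCDHGA4 (25 against 44 counts), PCDHGA2 (47 against 65), PCDHGB1 (161 against 175) and PCDHGA10 (174 against 175) also had all shRB libraries above all shCON libraries, with own CPM of 4.15 ± 0.64 against 5.69 ± 0.41 for PCDHGB1. The opposite order held, beside PCDHGC3, for PCDHGB2 and PCDHGB7. PCDHGB2 had 1.18, 1.10 and 1.47 own CPM in shCON and 0.73, 0.11 and 0.68 in shRB (44 against 16 counts, ratio 0.431, interval 0.227 to 0.779). PCDHGB7 had 26 against 12 counts (ratio 0.547, interval 0.251 to 1.12). The other genes overlapped, PCDHGA8 at 3.87 ± 1.59 against 4.18 ± 0.82 own CPM and PCDHGA7 at 3.86 ± 0.20 against 3.55 ± 0.52. Of the 20 genes, 13 had a ratio above 1 and 6 a ratio below 1. Every shRB library was above every shCON library in 5 of them, beside 21.0% of all rows tested. Every shRB library was below in 3, beside 20.2%, so nothing is read from these counts. The interval of PCDHGA10 (0.961 to 1.48) covered 1.

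Per kilobase of its own sequence, PCDHGC3 was at 6.09 CPM in shCON, ahead of PCDHGA10 at 1.95, PCDHGB1 at 1.72, PCDHGA8 at 1.60 and PCDHGA7 at 1.59 CPM. In shRB PCDHGC3 was at 5.29 CPM per kilobase, and PCDHGB1 and PCDHGA10 followed at 2.36 and 2.35 CPM. PCDHB5, at 14.7 and 15.5 CPM per kilobase in the 2 groups, was thus above any single gamma first exon, and below the gamma shared exons.

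**Figure D4:**
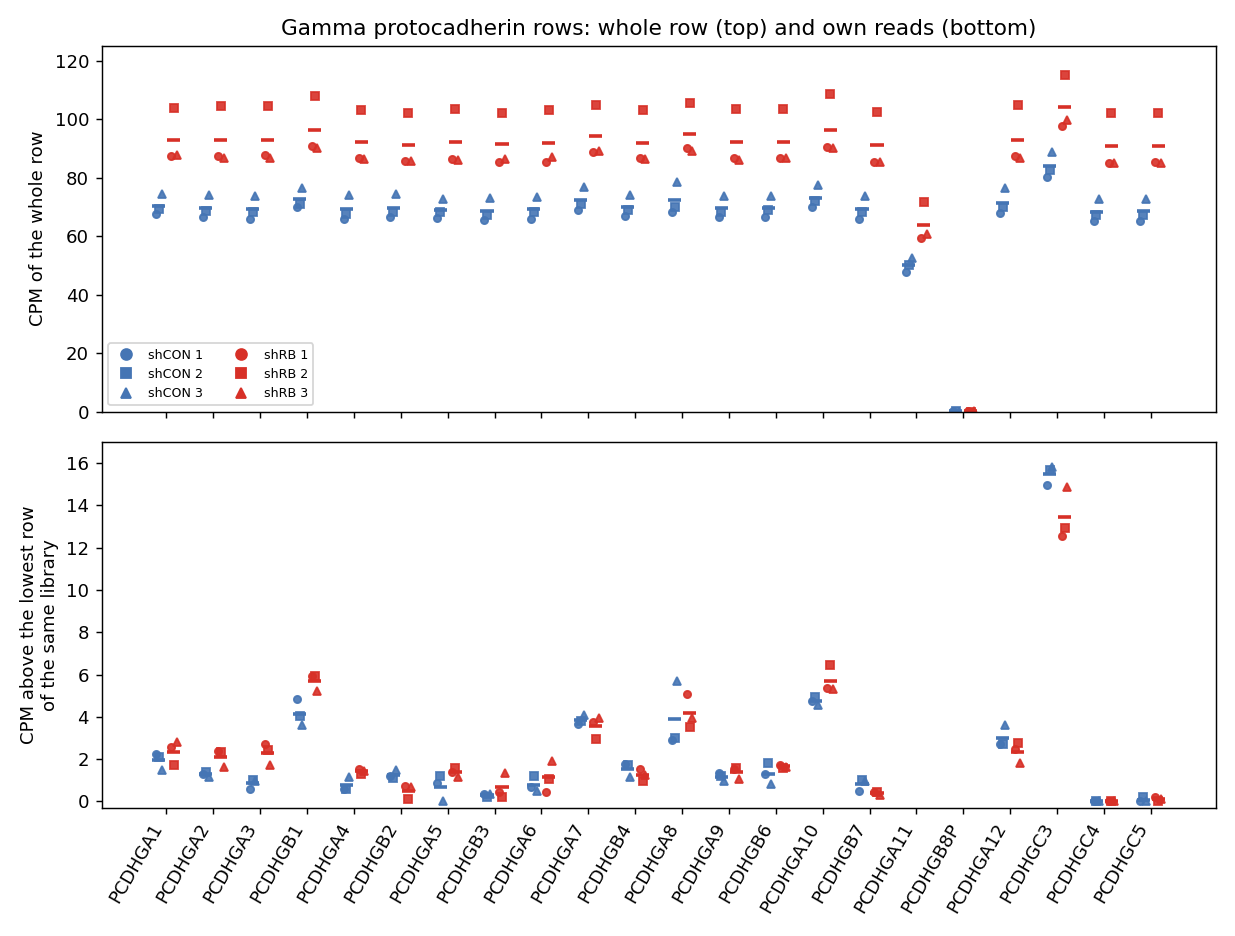
CPM of the 22 gamma rows by library, as whole rows (top) and as reads above the lowest row of the same library (bottom; PCDHGA11 and PCDHGB8P not shown there), with lines for group means. At the top 20 rows repeat 1 level per library; at the bottom PCDHGC3 leads at 15.5 CPM in shCON and 13.5 CPM in shRB.

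The alpha cluster was near the limit of detection. Its 13 genes share 2866 bases. Shared reads made up 81.4% of the counts summed over the 13 rows, where each shared read enters once per row. Counted once, the shared part had 28 counts in shCON and 5 in shRB. The reads above it, summed over the rows, came to 51 and 47 counts. The shared part had 18, 6 and 4 counts in shCON 1 to 3 and 1, 0 and 4 counts in shRB 1 to 3, or 0.88, 0.60 and 0.65 against 0.09, 0 and 0.39 CPM. The groups did not overlap, on 28 counts against 5, and the ratio was 0.212 with an interval of 0.064 to 0.555. Of the 5 shRB counts, 4 were in shRB 3: without it the ratio was 0.064 (interval 0.0016 to 0.386, on 1 count), while without any other library it lay between 0.196 and 0.305. The rows of PCDHAC1 and PCDHAC2, C-type alpha genes outside the naming rule that share these exons, had 28 and 30 counts in shCON and 5 and 5 in shRB. Without the filter on low counts, 12 alpha rows were called lower, but they count the same few reads.

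First-exon reads of the alpha genes came to 51 counts in shCON and 47 in shRB, with overlap between the groups (1.43 ± 0.10 against 1.504 ± 0.48 CPM, ratio 1.09, interval 0.719 to 1.66). Per kilobase, they came to 233% of the shared exons in shCON and 1115% in shRB. They thus exceeded the exons to which first exons are spliced. The own reads of alpha genes below therefore cannot be read as levels of spliced transcripts. The cause was not tested. PCDHA1 was the leading gene, with 25, 9 and 8 counts in its whole row in shCON and 16, 5 and 12 in shRB. Its groups overlapped (1.15 ± 0.21 against 1.05 ± 0.47 CPM, log2 -0.10 ± 0.36 SE), and the sign turned without shCON 1 (log2 0.01) or shRB 2 (log2 0.20). Its own reads numbered 14 in shCON and 28 in shRB (ratio 2.37, interval 1.21 to 4.87), again with overlap between libraries. They were 27.5% of the alpha first-exon reads in shCON and 59.6% in shRB. PCDHA10, in place 2 in shCON, had 12 own counts in shCON and 4 in shRB (ratio 0.395, interval 0.093 to 1.30). Its groups all but touched, with 0.294 own CPM in shCON 1 against 0.290 in shRB 3. PCDHA9 and PCDHA13 equalled the lowest row in every library, so their own counts are 0 by construction.

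**Figure D5:**
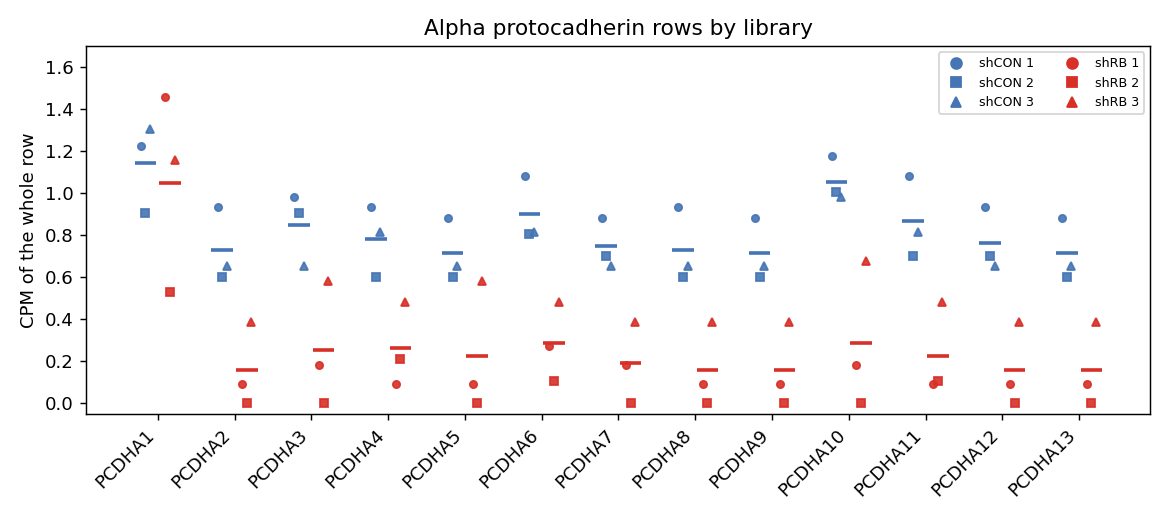
CPM of the 13 alpha rows (whole rows, shared exons included) by library, with lines for group means. PCDHA1 overlaps between groups, while rows such as PCDHA2, PCDHA8 and PCDHA13 repeat the shared reads, at 0.60 to 0.93 CPM in shCON and 0 to 0.39 CPM in shRB.

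Because the family is best known from neurons, neuronal markers were set beside it. Of 19 neuronal markers, 18 had a row and 4 had enough reads, and their sum was 158 to 163 CPM in shCON and 151 to 171 CPM in shRB. Markers at 0 in all libraries included ELAVL4 and INSM1. Of the 4 tested, MAP2, a dendrite microtubule protein, rose from 21.6 ± 1.80 to 35.1 ± 5.78 CPM (log2 0.71 ± 0.13 SE, adjusted p = 0.0013, edgeR). ENO2, the neuronal form of enolase, fell from 84.6 ± 1.12 to 64.4 ± 6.98 CPM (log2 -0.39 ± 0.09 SE, adjusted p = 0.0054, edgeR), and TUBB3 and SYP were not called. Stromal markers (12 of 14 with a row, 5 with enough reads) summed to 48.4 to 57.8 CPM in shCON and 30.3 to 34.8 CPM in shRB, with COL1A2, COL6A3, DES and PDGFRA at 0. Leukocyte and endothelial markers (10 with a row) summed to 13.9 to 17.8 and 7.005 to 9.12 CPM, with CD3E, CDH5, HBB, PECAM1 and PTPRC among those at 0. The part of these sums in the protocadherin values was not tested.

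Genes known to act at protocadherin promoters were read from the same fit. The list held 31 genes for CTCF, cohesin with its loaders and releasers, DNA methylation and silencing histone marks, and 30 had enough reads. In the edgeR fit 2 rose (12.8% of all rows tested rose), 2 fell (12.5% of all rows fell) and 26 were not called, and the median log2 fold change was -0.07. CTCF itself, which binds the promoter element, was at 76.5, 75.0 and 87.2 CPM in shCON and 85.4, 81.9 and 85.8 CPM in shRB, with overlap (log2 0.09 ± 0.08 SE, adjusted p = 0.45, edgeR).

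SMC1A, a core subunit of the cohesin ring, fell. It was at 104.7, 85.3 and 91.6 CPM in shCON and 55.7, 55.4 and 66.8 CPM in shRB, so the groups were apart (93.9 ± 9.90 against 59.3 ± 6.49 CPM, log2 -0.67 ± 0.10 SE, adjusted p = 0.00033, edgeR). The other cohesin subunits were not called, with means of 204 and 230 CPM for RAD21, 47.3 and 53.6 CPM for SMC3 and 166 and 139 CPM for STAG2. ZNF274, a zinc finger protein that recruits SETDB1 to silence clustered genes, fell from 38.7 ± 0.89 to 30.9 ± 3.22 CPM (log2 -0.32 ± 0.10 SE, adjusted p = 0.035, edgeR).

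The list's 2 rises were DNMT3A, which places new DNA methylation, and EZH2, which writes the H3K27 methylation of Polycomb. DNMT3A was at 13.9, 12.2 and 12.7 CPM in shCON and 17.01, 17.3 and 17.1 CPM in shRB (log2 0.39 ± 0.12 SE, adjusted p = 0.025, edgeR). EZH2 was at 19.6, 16.2 and 14.7 CPM in shCON and 22.5, 19.6 and 28.4 CPM in shRB, where shRB 2 only just passed shCON 1 (log2 0.45 ± 0.15 SE, adjusted p = 0.039, edgeR). The call of SMC1A held with any 1 library left out. That of ZNF274 was lost without shCON 1, 2 or 3, shRB 1 or shRB 2 (adjusted p = 0.055 to 0.12, edgeR) and that of DNMT3A without any library except shRB 2 (0.052 to 0.086) and with DESeq2 (0.067). That of EZH2 was lost without shCON 2 or 3 or shRB 1 or 3 (0.058 to 0.18), with limma-voom (0.051) and with upper quartile scaling (0.054).

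A further list held proteins that process clustered protocadherins or pass on their signal. Of 24 listed genes 19 had enough reads, 1 rose, 1 fell and 17 were not called, beside 25.3% of all rows called in either direction, with a median log2 fold change of -0.02. PSEN2, a catalytic subunit of the gamma-secretase that cuts these proteins in the membrane, rose from 45.8 ± 3.81 to 57.0 ± 1.81 CPM (log2 0.31 ± 0.09 SE, adjusted p = 0.021, edgeR). PRKCA, the kinase PKC alpha, fell from 17.03 ± 1.12 to 12.9 ± 0.87 CPM (log2 -0.39 ± 0.12 SE, adjusted p = 0.030, edgeR). PTK2B, the kinase PYK2 that the shared alpha and gamma tails hold in check, was at 120.2 ± 4.62 and 139.4 ± 9.96 CPM and was not called (adjusted p = 0.060, edgeR), nor was RHOA at 609.6 ± 21.8 and 693.7 ± 25.7 CPM (adjusted p = 0.065, edgeR). The call of PSEN2 was lost without shCON 1, shCON 3 or shRB 3 (adjusted p = 0.053 to 0.11, edgeR). That of PRKCA was lost without shCON 1, 2 or 3 or shRB 1 (0.052 to 0.11) and with DESeq2 (0.069).

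Protocadherins and giant cadherins outside the clusters went both ways. Of 27 listed genes 11 had enough reads, of which 3 rose, 4 fell and 4 were not called, beside 12.8% of all rows that rose and 12.5% that fell (median log2 0.27). PCDH11X was at 20.1, 19.3 and 17.5 CPM in shCON and 4.55, 1.59 and 3.48 CPM in shRB (log2 -2.55 ± 0.22 SE, adjusted p = 3.0e-06, edgeR). PCDH11Y, its close paralog with which reads may be exchanged, was at 35.3, 33.4 and 36.6 CPM in shCON and 11.7, 6.25 and 12.8 CPM in shRB (log2 -1.76 ± 0.18 SE, adjusted p = 1.3e-05, edgeR). For both the groups were far apart. PCDH7 rose from 3.37 ± 0.66 to 9.99 ± 2.27 CPM (log2 1.52 ± 0.20 SE, adjusted p = 0.00011, edgeR). PCDH9 rose from 0.07 ± 0.06 to 1.61 ± 0.43 CPM (adjusted p = 9.2e-05, edgeR), and its shCON level rests on hardly any reads. It had enough reads for the fit through its shRB libraries only, so its call is a description. The remaining calls, named here after their values were seen, were PCDH20 (log2 1.71, adjusted p = 0.00071), CELSR1 (log2 -0.54, adjusted p = 0.0022) and CELSR2 (log2 -0.34, adjusted p = 0.0072), all from edgeR.

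Classical and desmosomal cadherins with their catenins gave 2 rises, 5 falls and 6 genes not called among 13 with enough reads of 36 listed, beside the same 12.8% and 12.5% of all rows (median log2 -0.11). CDH3, or P-cadherin, fell from 7.60 ± 0.56 to 0.19 ± 0.15 CPM (log2 -5.23 ± 0.32 SE, adjusted p = 1.2e-07, edgeR). Its shRB level, and with it the size of the fold change, rests on hardly any reads. It had enough reads for the fit through its shCON libraries only, so its call is a description. The desmosomal DSC3 rose from 24.1 ± 3.65 to 58.3 ± 8.49 CPM (adjusted p = 1.2e-05, edgeR), while DSC2 fell from 314.7 ± 20.6 to 183.3 ± 18.7 CPM (adjusted p = 2.7e-05, edgeR) and DSG2 fell from 264.2 ± 20.9 to 171.3 ± 41.2 CPM (adjusted p = 0.0047, edgeR).

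Genes around the clusters on chromosome 5 were set beside them. Of 42 listed neighbours 26 had enough reads, 2 rose, 1 fell and 23 were not called, beside 25.3% of all rows called in either direction, with a median log2 fold change of -8.6e-05. TAF7, a general transcription factor subunit whose gene lies between the beta and gamma clusters, was at 278.1, 255.2 and 261.0 CPM in shCON and 314.1, 272.3 and 309.0 CPM in shRB, with overlap and no call (log2 0.17 ± 0.08 SE, adjusted p = 0.12, edgeR). DIAPH1, a formin just beyond the gamma cluster, rose from 227.9 ± 14.4 to 276.9 ± 25.5 CPM (log2 0.28 ± 0.08 SE, adjusted p = 0.024, edgeR). SLC35A4 rose (log2 0.32 ± 0.09 SE, adjusted p = 0.016, edgeR), NDFIP1 fell (log2 -0.24 ± 0.08 SE, adjusted p = 0.044, edgeR), and PCDH1, a neighbour that is a protocadherin but no member of the clusters, had 14.6 ± 1.69 and 19.3 ± 3.35 CPM (adjusted p = 0.051, edgeR). Without shCON 1 or shCON 3 the calls of SLC35A4 (adjusted p = 0.091 and 0.059, edgeR), DIAPH1 (0.11 and 0.10) and NDFIP1 (0.17 and 0.18) were lost, DIAPH1 also without shRB 3 (0.054) and NDFIP1 without shRB 1 (0.068) or shRB 3 (0.0501). PCDH1 passed the threshold without shRB 3 (0.032) and with limma-voom (0.049), no filter (0.013) or a GC offset (0.011).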

How the data were processed

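The authors deposited unnormalized read counts, as whole numbers for each transcript ID in each library. Per the submitters' processing notes, the build was hg19 and the tools were edgeR, HOMER and STAR, with no version or role. How reads that fit several rows, or either strand, were counted is not given in the sources used. By transcript ID 22182 of 22279 rows matched GENCODE release 29, which describes another build and served for names, lengths, GC content and exon sharing only; the 97 unmatched rows held 0.38% of the counts and stayed in the library totals. Promoter windows are RefSeq's on GRCh38.p14.

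All 6 libraries were fitted with edgeR 4.0.16 in R 4.3.3 (TMM, filterByExpr with a minimum count of 10 and a minimum total of 15, quasi-likelihood F test, Benjamini-Hochberg threshold 0.05, group as the only term). On simulated counts of 11605 genes for this comparison the fit called 12.2% of the genes given a 1.25-fold change, 60% of those given 1.5-fold, 89.8% of those given 2-fold and 100% of those given 4-fold. Each fold was given to 49 or 50 genes, and 11407 genes were left unchanged. In the data 25.3% of rows were called, so the adjustment over genes was stricter in the simulation. These shares therefore do not carry over to the data. Standard errors are of the log2 fold change. Intervals cover counting error only.

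The members and lists were chosen with earlier results of these data known. Named genes are RB1, CTCF, the members, and in each list up to 4 tested genes of smallest p; genes named outside the rule, the cohesin subunits and TAF7 included, were chosen after their values were seen. Listed genes without a row were not analysed here. Alternatives were DESeq2 1.42.0, limma-voom (limma 3.58.1), RLE and upper quartile scaling, other filters, a GC offset, a replicate block, a threshold of 0.01 and each library left out.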

Additional observations from a re-analysis of the deposited data

How the results depend on the processing

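The beta median was 0.30 to 0.47 and the gamma median 0.33 to 0.46 (log2) without single libraries, and no direction of a called value reversed. Over all genes 1499 rows were higher and 1459 lower. Without single libraries there were 863 to 2074 and 912 to 1956 (without shCON 1, 863 and 912; without shCON 3, 969 and 964). With a GC offset there were 2314 and 2255, at a threshold of 0.01 787 and 793. Members called higher numbered 22 to 24 without single libraries, and members called lower 0 to 1 (PCDHA10, without shRB 2 and without shRB 3) and 12 with no filter. The beta sum had a log2 ratio of 0.30 (0.28 to 0.33 without single libraries), or 0.61 as a median of the rows. The gamma sum had 0.40 (0.31 to 0.44) and the alpha sum -1.58 (-2.44 to -1.13). The gamma and alpha sums add whole rows, so a shared read enters once for every row that counts it. They are therefore no measure of the RNA of a cluster. The log2 ratio of means was -2.16 for the alpha shared part and 0.07 for the alpha own reads. For gamma these were 0.41 and 0.11.

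For the lists, counts are given as higher, then lower. Architecture genes (2 and 2) came to 0 to 6 and 1 to 2 without single libraries, 5 and 7 with the GC offset, 0 and 1 at 0.01, 1 higher with DESeq2, limma-voom or upper quartile scaling, and 5 lower with no filter. Partners (1 and 1) came to 0 to 2 and 0 to 1 without single libraries, 5 and 3 with the GC offset, 0 and 0 at 0.01, and 0 lower with DESeq2. Neighbours (2 and 1) came to 0 to 3 and 0 to 3 without single libraries, 5 and 3 with the GC offset, 0 and 0 at 0.01, and 2 lower with upper quartile scaling or no filter. Classical cadherins (2 and 5) came to 1 to 2 and 3 to 5 without single libraries, 1 and 3 at 0.01, and 1 higher with DESeq2. Other protocadherins stayed at 3 to 4 and 4. The cause of these shifts was not tested.

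The labels give same-numbered libraries nothing in common but the number. Their deviations correlated at 0.36, 0.44 and 0.0045 for replicates 1, 2 and 3, and replicate 2 alone matched its own number best. With the replicate block 2202 rows were higher and 2294 lower, architecture genes came to 5 and 8, partners to 5 and 3 and neighbours to 5 and 2. With the replicate block and the GC offset there were 2475 and 2411, and the lists came to 6 and 7, 5 and 2, and 6 and 3. Alpha values rest on few counts.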
